A study of Mus musculus with 6 samples.

Results

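A set of 10 genes known as targets of the transcription factors STAT3 and STAT5 was followed in mouse bone marrow stromal cell cultures: the kinases Pim1 and Pim3, the nuclear regulators Bcl3, Bcl6, Myc and Cebpd, and the secreted or acute-phase proteins Fgl2, Lcn2, Saa3 and Lrg1. The genes were chosen by name as known targets, with earlier results of these data known. Each of the 10 was found among the 49328 genes of the deposited table. The cultures were labelled mesenchymal stromal cells (MSCs) and were isolated by digestion of unfractionated marrow. The donors were CB6F1 mice (a hybrid laboratory strain) that had aGVHD, or acute graft-versus-host disease, the attack of transplanted immune cells on their host. Cultures in DMEM (high-glucose, with FBS and antibiotics) were given either a compound labelled R (0.5 um, as the unit is labelled) or its vehicle, DMSO, with 3 libraries in each group. All 6 libraries came from diseased animals, and no library of healthy mice was among them. The sources used here do not give the identity of R, the length of treatment, the age of the mice or whether replicates were separate animals or cultures, so that p-values measure the spread between these libraries, which may be technical.

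STAT3 and STAT5 are latent transcription factors that Janus kinases (JAKs) phosphorylate at cytokine and growth factor receptors, after which they form dimers, enter the nucleus and bind DNA. Cytokines of the interleukin-6 family act mainly through STAT3, which in the liver switches on the acute-phase response, the release of plasma proteins during inflammation. The same factors control survival and growth genes, among them the PIM kinases, and the SOCS inhibitors that shut the signal off again. Macrophages, which often persist in cultures of marrow stroma, also use this pathway.

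The sequences before the transcription starts show which of these genes carry the letters that STAT dimers prefer. RefSeq promoter windows on GRCm38.p6, from the C57BL/6J reference and not from the CB6F1 cells, were matched by symbol for 8 of the 10 genes (all but Myc and Cebpd), in 10 windows. A window runs from 250 bases before to 50 bases after a start. The motif TTCNNNGAA, which reads the same on both strands, was held by 3 windows of 2 genes, Bcl6 and Fgl2, and by 8.3% of all 32851 windows. Its stricter form TTCCNGGAA, contained in the first, was held by 1 window, the second of Bcl6, and by 1.15% of all windows. The form with 4 bases between the arms, TTCNNNNGAA, was found in Lcn2 and in 6.95% of all windows. The letters GAAANNGAAA of an interferon response element, searched on both strands, were found in Saa3 and in 3.44% of all windows. A match is a description of the letters and does not show that a factor binds. The 250 bases before the start are shown, 5′ to 3′ on the strand of the gene, for the genes with a match, with every match to these motifs in capitals. They are Fgl2 on the plus strand (chr5:21372423-21372672), Bcl6 at its first and second starts on the minus strand (chr16:23988853-23989102 and chr16:23981284-23981533), Saa3 on the minus strand (chr7:46715677-46715926) and Lcn2 on the minus strand (chr2:32387740-32387989).
Fgl2: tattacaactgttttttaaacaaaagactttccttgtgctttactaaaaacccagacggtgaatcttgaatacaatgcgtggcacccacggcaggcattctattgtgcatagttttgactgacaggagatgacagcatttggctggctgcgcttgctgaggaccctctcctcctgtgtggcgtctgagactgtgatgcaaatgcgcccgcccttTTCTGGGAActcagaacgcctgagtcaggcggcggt
Bcl6, first start: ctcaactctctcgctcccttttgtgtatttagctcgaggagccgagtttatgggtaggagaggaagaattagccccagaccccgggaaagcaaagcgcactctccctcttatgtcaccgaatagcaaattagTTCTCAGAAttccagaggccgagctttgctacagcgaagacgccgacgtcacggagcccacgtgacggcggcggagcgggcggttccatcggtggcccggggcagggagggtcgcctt
Bcl6, second start: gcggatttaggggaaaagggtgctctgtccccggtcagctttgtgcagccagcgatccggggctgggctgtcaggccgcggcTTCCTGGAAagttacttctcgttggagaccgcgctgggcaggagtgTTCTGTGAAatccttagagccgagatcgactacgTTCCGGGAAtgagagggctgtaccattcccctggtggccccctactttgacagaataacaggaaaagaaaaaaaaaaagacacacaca
Saa3: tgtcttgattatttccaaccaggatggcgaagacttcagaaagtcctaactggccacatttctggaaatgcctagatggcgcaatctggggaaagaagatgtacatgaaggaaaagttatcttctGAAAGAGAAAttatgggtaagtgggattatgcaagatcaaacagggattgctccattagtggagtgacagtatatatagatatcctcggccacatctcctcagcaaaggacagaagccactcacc
Lcn2: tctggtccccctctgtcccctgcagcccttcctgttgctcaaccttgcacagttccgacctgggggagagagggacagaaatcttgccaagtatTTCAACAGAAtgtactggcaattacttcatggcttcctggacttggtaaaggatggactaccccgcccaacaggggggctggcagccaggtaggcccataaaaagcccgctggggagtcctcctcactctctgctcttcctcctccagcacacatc
The Fgl2 match, TTCTGGGAA, begins 36 bases before the start. The second start of Bcl6 lies inside the gene and has 3 matches, which begin 168, 122 and 88 bases before it. The first start of Bcl6 has 1 match, 118 bases before it. The Saa3 match to the interferon element begins 125 bases before the start. The windows of Pim1, Pim3, Bcl3 and Lrg1 held none of the 4 motifs.

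Values are FPKM (fragments scaled to gene length and library depth), a unit in which genes can be compared per length. Depth was estimated at 17060000 to 21730000 reads, and 11862 genes had at least 1 FPKM in at least 3 libraries and were tested with limma on log2(FPKM + 1). The log2 changes given are R minus vehicle on that scale, which understates the change of low genes, and a call is an adjusted p under 0.05 over all tested genes. Libraries correlated at 0.977 to 0.986 within a group and at 0.936 to 0.963 between groups (Pearson's r across genes, which are not independent replicates). Of the 10 genes 8 were tested, each with at least 1 FPKM in all 6 libraries, and Lcn2 and Lrg1 were too low. In bulk RNA, fewer cells of a type and less RNA per cell cannot be told apart.

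Of the 8 tested genes 3 fell in R, 0 rose and 5 did not pass the threshold. The 3 that fell were Fgl2, Saa3 and Bcl3. Of all tested genes 6.82% passed, 2.39% higher and 4.43% lower in R. The median log2 change of the 8 genes was -0.41, beside 0.00 for all tested genes. In 6 of the 8, and in 29.3% of all tested genes, the values of the groups did not overlap. All R values of Pim1, Bcl3, Fgl2 and Saa3 lay below all vehicle values, and those of Pim3 and Bcl6 lay above them. Of all tested genes 15.5% were lower in this way and 13.9% higher. The acute-phase genes Lcn2 and Lrg1 were close to 0 in both groups.

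**Figure D1:**
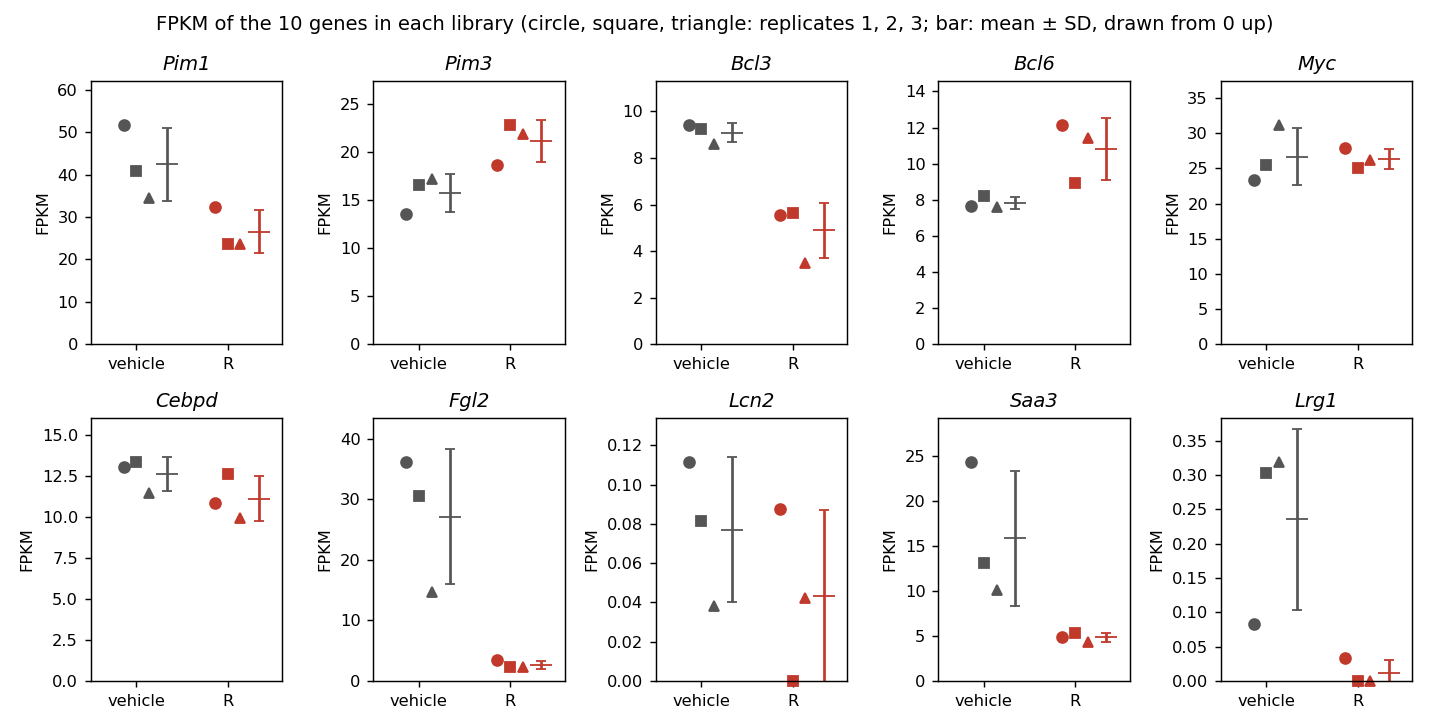
FPKM of each of the 10 genes (vertical axes from 0, a scale of its own for each gene) in the vehicle libraries (grey) and the R libraries (red); circles, squares and triangles are replicates 1, 2 and 3, and bars are the mean ± SD of 3 libraries. Fgl2 shows the widest gap, with every R library under 3.42 FPKM and every vehicle library above 14.6 FPKM, whereas Myc, Cebpd and Lcn2 overlap.

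The PIM genes encode serine/threonine kinases that promote cell survival and are active without an activating step. Pim1 (chromosome 17, 29490753 to 29496112, GRCm38) had 51.7, 40.9 and 34.6 FPKM in vehicle replicates 1, 2 and 3 and 32.4, 23.6 and 23.5 FPKM in R replicates 1, 2 and 3. Each R library lay below each vehicle library, but the lowest vehicle value was only 1.07 times the highest R value. The means were 42.4 ± 8.68 and 26.5 ± 5.11 FPKM (SD, n = 3), and the log2 change of -0.65 (SE 0.18, 95% interval -1.07 to -0.23) did not pass in limma (adjusted p = 0.078). Pim3 (chromosome 15, 88862186 to 88865726) stood the other way round, with 13.5, 16.6 and 17.2 FPKM in vehicle and 18.7, 22.8 and 21.9 FPKM in R. The groups did not overlap, again with a narrow gap, the lowest R value being 1.09 times the highest vehicle value. Its log2 change of 0.40 (SE 0.12, 95% interval 0.12 to 0.69) did not pass either (limma, adjusted p = 0.097).

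The ratio of the 2 kinases was taken after their values were seen. Pim1 stood at 3.83, 2.46 and 2.01 times the FPKM of Pim3 in vehicle replicates 1, 2 and 3 and at 1.73, 1.04 and 1.08 times in R. Since each kinase alone separated the groups, in opposite directions, the ratio could not overlap between them. The mean ratio was 2.77 ± 0.947 in vehicle and 1.28 ± 0.392 in R (SD, n = 3), a log2 difference of -1.10. The two-sided exact permutation test gave p = 0.1, the smallest value that 3 libraries against 3 allow. That outcome was fixed by the separation of the 2 genes and adds nothing to it. The third family member, Pim2, was low and level, with 1.22 to 1.78 FPKM in vehicle and 1.47 to 1.61 FPKM in R (log2 change 0.00, SE 0.13). Pim1 shares 488 exon bases with the antisense gene Gm26885, which was not analysed here, and the strandedness of the libraries is not given.

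Among the nuclear regulators, Bcl3 fell and Bcl6, Myc and Cebpd did not pass. Bcl3 is an atypical member of the IkappaB family that works in the nucleus with the p50 and p52 subunits of NF-kappaB. Bcl3 (chromosome 7, 19808462 to 19822770) had 9.42, 9.23 and 8.62 FPKM in vehicle and 5.54, 5.62 and 3.51 FPKM in R. The vehicle libraries lay close together, with a coefficient of variation of 4.59%, and all above the R libraries. The means were 9.09 ± 0.417 and 4.89 ± 1.19 FPKM (SD, n = 3; log2 change -0.80, SE 0.16, limma, adjusted p = 0.031). The call was lost without R replicate 1 or 2 (adjusted p = 0.053 and 0.051) and without vehicle replicate 1, 2 or 3 (adjusted p = 0.11, 0.094 and 0.051). The log2 change lay between -0.91 and -0.52 over all alternatives.

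Bcl6 is a transcriptional repressor that lymphocytes use to direct differentiation, and a gene that STAT5 is known to repress. Bcl6 (chromosome 16, 23965052 to 23988852) had 7.65, 8.20 and 7.58 FPKM in vehicle and 12.1, 8.90 and 11.4 FPKM in R. Each R library lay above each vehicle library, with R replicate 2 only 1.09 times the highest of them. The log2 change was 0.41 (SE 0.12, 95% interval 0.13 to 0.70, limma, adjusted p = 0.09), and without R replicate 2 it was 0.54 and passed (adjusted p = 0.036). That was the only 1 of the 14 alternatives in which Bcl6 passed, and in the others its adjusted p in limma reached 0.27. Bcl6 was the only gene of the 8 matched with more than 1 STAT motif in a window.

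Myc, the growth-promoting transcription factor, was at the same mean in both groups. Myc (chromosome 15, 61985391 to 61990374) had 23.4, 25.5 and 31.2 FPKM in vehicle and 27.9, 25.0 and 26.2 FPKM in R. All R values lay within the range of the vehicle values. The log2 change was -0.01 (SE 0.12) with a 95% interval of -0.29 to 0.27, so that a log2 change larger than about 0.29 in size lies outside it. Cebpd (chromosome 16, 15887286 to 15891031) encodes the transcription factor C/EBP-delta of the acute-phase response. It had 13.1, 13.4 and 11.4 FPKM in vehicle and 10.8, 12.6 and 9.94 FPKM in R, and the groups overlapped through R replicate 2 and vehicle replicate 3. Its log2 change of -0.17 (SE 0.11, 95% interval -0.43 to 0.09) did not pass (limma, adjusted p = 0.4). The value is uncertain, since Cebpd shares 562 exon bases with Spidr on the opposite strand, which had a mean of 3.41 FPKM.

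Fgl2 had the deepest fall of the 8 tested genes. It encodes fibrinogen-like protein 2, which exists as a membrane prothrombinase of activated macrophages and as a secreted protein that restrains T cells. Fgl2 (chromosome 5, 21372642 to 21378374) had 36.2, 30.6 and 14.6 FPKM in vehicle replicates 1, 2 and 3 and 3.41, 2.22 and 2.29 FPKM in R. Even the lowest vehicle library stood 4.29 times above the highest R library. The mean fell 10.3-fold, from 27.1 ± 11.2 to 2.64 ± 0.668 FPKM (SD, n = 3; log2 change -2.87, SE 0.32, limma, adjusted p = 0.0031). It ranked 33rd among the falls of all 11862 tested genes. Its call held in each of the 14 alternatives tried, with adjusted p up to 0.023.

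Saa3, a serum amyloid A protein that is made in tissues, macrophages included, rather than mainly in liver, fell about 3-fold. Saa3 (chromosome 7, 46711998 to 46715700) had 24.4, 13.1 and 10.1 FPKM in vehicle and 4.87, 5.33 and 4.35 FPKM in R. The R libraries were alike, with a coefficient of variation of 10.1%, whereas the vehicle libraries spread 2.42-fold between lowest and highest. The mean fell from 15.9 ± 7.55 to 4.85 ± 0.491 FPKM (SD, n = 3), 3.27-fold, with a log2 change of -1.44 (SE 0.28, limma, adjusted p = 0.029). The call was lost without R replicate 1, 2 or 3 (adjusted p = 0.075, 0.079 and 0.081) or vehicle replicate 2 (adjusted p = 0.069), and it held without vehicle replicate 1, the highest library. The other serum amyloid genes were listed at or near 0: Saa2 had 0 reads in every library, and Saa1 and Saa4 had reads only in R replicate 2, at 0.0224 and 0.0266 FPKM.

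**Figure D2:**
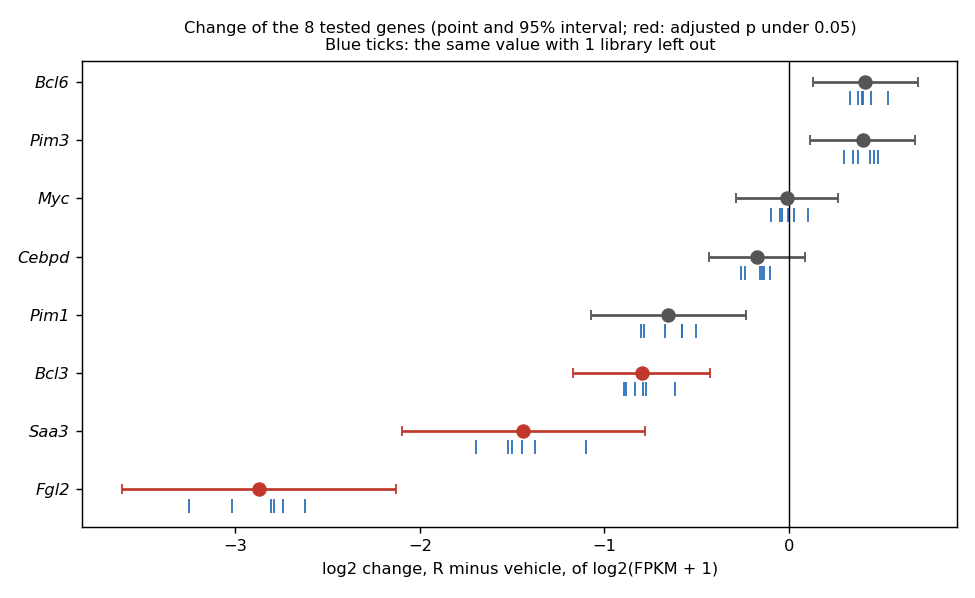
Log2 change (R minus vehicle, horizontal axis) of the 8 tested genes with its 95% interval from limma, red where the adjusted p is under 0.05; blue ticks show the value when 1 of the 6 libraries was left out. Fgl2, Saa3 and Bcl3 lie left of 0 in every fit, at -2.87, -1.44 and -0.80 with all libraries, and Myc changes side.

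Lcn2 and Lrg1 were measured by a handful of reads. Lcn2 (chromosome 2, 32384633 to 32388252), which encodes lipocalin 2, a protein that withholds iron from bacteria, had 0.112, 0.0814 and 0.0381 FPKM in vehicle and 0.0876, 0 and 0.0422 FPKM in R. These values stand for 11 reads in vehicle and 7 in R, and the groups overlapped. Per depth the vehicle level was 1.63 times that of R, with an exact 95% interval of 0.576 to 4.95 that covers counting error only. Lrg1 (chromosome 17, 56119678 to 56122001), which encodes a leucine-rich glycoprotein linked to vessel growth, had 0.0832, 0.303 and 0.319 FPKM in vehicle and 0.0327, 0 and 0 FPKM in R. That is 2, 8 and 9 reads in vehicle replicates 1, 2 and 3 and 1, 0 and 0 reads in R. The pooled reads, 19 against 1, gave a ratio of 19.7 per depth with an exact 95% interval of 3.13 to 817, for counting error only. A level of 3 reads would be 0.0981 to 0.125 FPKM for Lrg1, so that vehicle replicate 1 is not above that floor. Neither gene was in the test, and the two-sided exact permutation test of log2(FPKM + 1) gave p = 0.5 for Lcn2 and p = 0.1 for Lrg1.

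The vehicle libraries differed among themselves in an order that several of these genes shared. Vehicle replicate 3 was the lowest of the 3 for 6 of the 8 tested genes, and vehicle replicate 1 the highest for 4, Pim1, Bcl3, Fgl2 and Saa3. For Pim3 and Myc the order was turned round, with vehicle replicate 3 highest and vehicle replicate 1 lowest. Vehicle replicate 3 was also the vehicle library nearest to the R mean for 6 of the 8. Without it the log2 change of Fgl2 was -3.25, the largest in size over the alternatives.

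**Figure D3:**
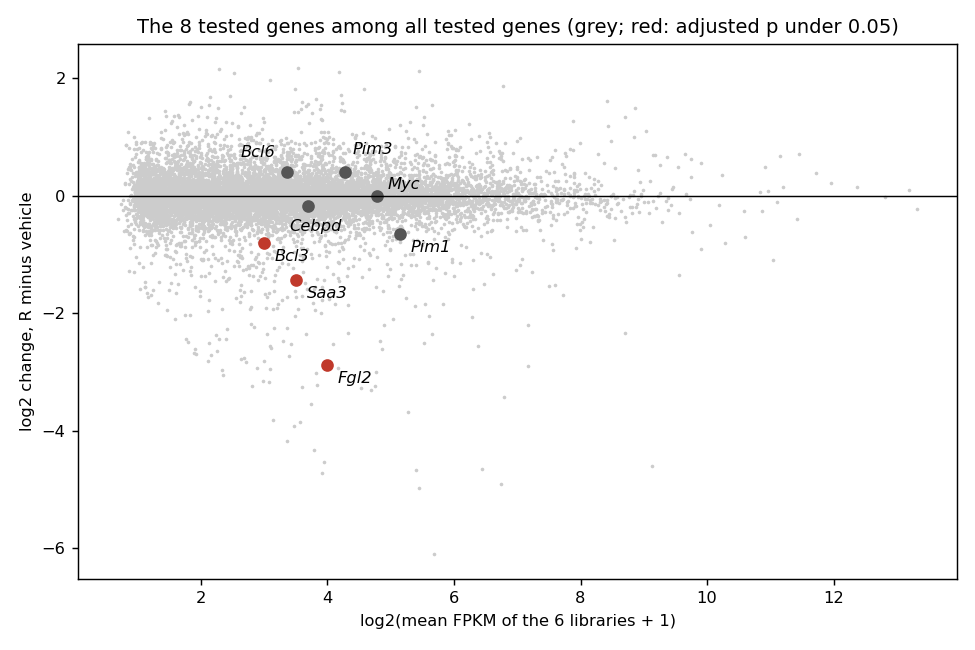
Log2 change (R minus vehicle, vertical axis) against log2 of the mean FPKM of the 6 libraries plus 1 (horizontal axis) for all 11862 tested genes (grey) and the 8 tested STAT targets (red where the adjusted p is under 0.05). Fgl2 at -2.87 lies far below the mass of genes and Myc at -0.01 within it. Pim1 at -0.65 ranks 490th among the falls of all tested genes.

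The genes around these targets in the pathway were compared by role. For the counts that follow, the share among all tested genes was 6.82% past the threshold, 2.39% higher and 4.43% lower in R. Of 9 tested ligands that activate STAT3 or STAT5, 2 rose and 0 fell. Clcf1, a cytokine of the interleukin-6 family, had 7.91, 8.78 and 13.6 FPKM in vehicle and 19.2, 19.5 and 19.6 FPKM in R (log2 change 0.92, limma, adjusted p = 0.03, lost without any single library other than vehicle replicate 3, at adjusted p of 0.076 to 0.095). Hbegf, a ligand of the EGF receptor, rose by 1.46 on the log2 scale (limma, adjusted p = 0.0047). Of 16 tested receptors 3 fell and 0 rose. The common gamma chain Il2rg had 44.6, 31.4 and 28.6 FPKM in vehicle and 14.7, 14.4 and 12.4 FPKM in R (log2 change -1.25, limma, adjusted p = 0.0074). Osmr, the oncostatin M receptor, fell by 1.26 and Il4ra, the interleukin-4 receptor, by 0.62 (limma, adjusted p = 0.0026 and 0.047), and the call of Il4ra was lost with equal medians (adjusted p = 0.058) and without any single library other than vehicle replicate 3 (adjusted p = 0.075 to 0.14). The shared signal chain of the interleukin-6 family, Il6st, was chosen after its values were seen and stood at 14.2, 15.6 and 12.7 FPKM in vehicle and 9.01, 10.1 and 14.2 FPKM in R (adjusted p = 0.26).

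Among the 7 kinases and STAT factors upstream, 3 fell, 0 rose and each of the 7 had a negative log2 change, as had 6018 of all 11862 tested genes. Stat3 itself had 22.6, 22.5 and 22.5 FPKM in vehicle and 13.3, 11.2 and 13.3 FPKM in R, a fall of 0.80 on the log2 scale (limma, adjusted p = 0.0036), equal in size to that of Bcl3. Stat5a fell by 0.42 and Jak3 by 0.53 (limma, adjusted p = 0.034 and 0.047), and both calls were lost without any single library other than vehicle replicate 3 (adjusted p of 0.06 to 0.14 and of 0.084 to 0.16). With all libraries the call of Jak3 was also lost with quantile normalization, equal medians or a pseudocount of 5 (adjusted p = 0.057, 0.051 and 0.052). Jak1, Jak2, Tyk2 and Stat5b had log2 changes of -0.35, -0.27, -0.31 and -0.09 that did not pass (limma, adjusted p = 0.096, 0.33, 0.21 and 0.69). The call of Jak2 appeared when R replicate 3 was left out (adjusted p = 0.049). Of 10 tested inhibitors 2 fell, Socs3 and Socs1, the feedback inhibitors of the SOCS family, by 1.84 and 1.78 (limma, adjusted p = 0.00087 and 0.00094), and 0 rose. Socs3 had 28.0, 26.0 and 24.4 FPKM in vehicle and 5.11, 6.81 and 8.02 FPKM in R. The fall of Socs3 was deeper than those of Saa3 and Bcl3 and less deep than that of Fgl2, differences between genes that were not tested.

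Other targets of STAT3 and STAT5 moved in part, as the 10 genes did. Of 24 tested growth and survival targets 4 fell and 0 rose, with a median log2 change of -0.02. The adhesion molecule Icam1, the NAD-synthesis enzyme Nampt and the transcription factor Batf fell by 1.37, 1.0 and 0.999 (limma, adjusted p = 0.00069, 0.0082 and 0.011), and the remaining gene was Il4ra, which the receptors also count. Of 30 other acute-phase genes 29 were in the table, 9 were tested, 7 were listed at 0 in every library, 3 fell and 0 rose. Complement C3 had 60.6, 40.1 and 43.9 FPKM in vehicle and 9.66, 9.72 and 9.29 FPKM in R (log2 change -2.20, limma, adjusted p = 0.00049). Ceruloplasmin, Cp, which carries copper, fell by 1.49 and metallothionein 2, Mt2, which binds metals, by 0.80 (limma, adjusted p = 0.013 and 0.023). Cp stood at 0.274, 0.581 and 1.04 FPKM in R and met the filter through its vehicle libraries. The call of Cp was lost without R replicate 2 (adjusted p = 0.052) and that of Mt2 without R replicate 1 or 3 or vehicle replicate 1 or 2 (adjusted p = 0.063 to 0.079). The median of the 9 was -1.17, and 8 of them had a negative log2 change, beside 6018 of all 11862 tested genes. Counting each gene once, 16 of 74 tested pathway genes passed, 2 higher and 14 lower. Among all tested genes 6.82% passed, and the lists were chosen with earlier results of these data known.

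**Figure D4:**
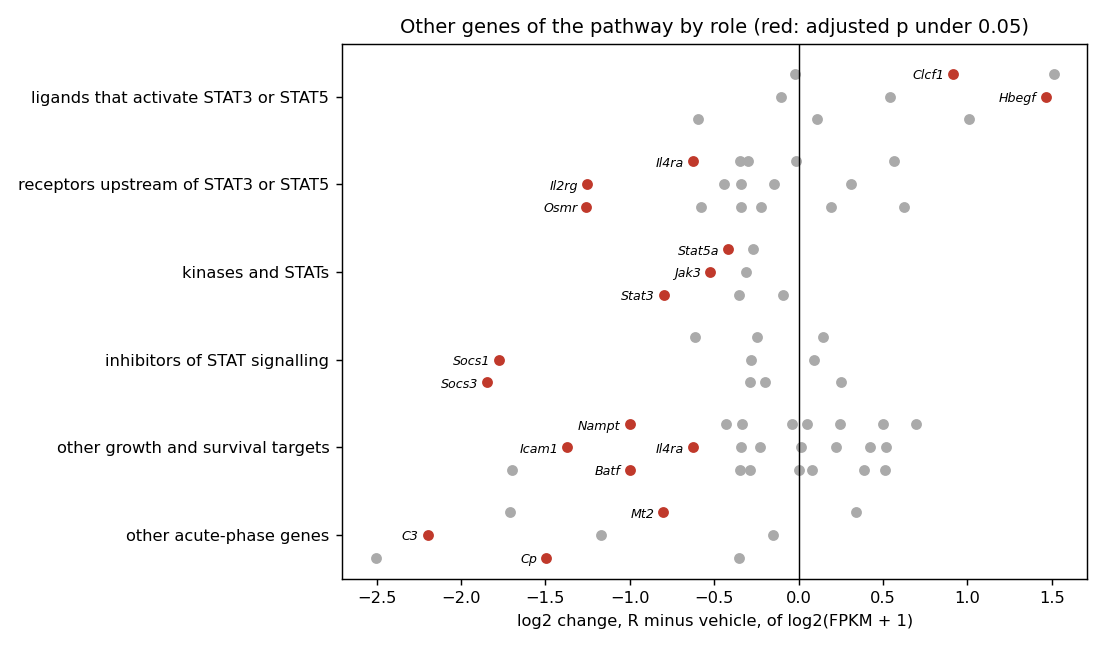
Log2 change (R minus vehicle, horizontal axis) of the tested genes of 6 lists around the STAT3 and STAT5 pathway, one row of points per list; red points passed an adjusted p of 0.05 in limma and are named, and the vertical spread within a list has no meaning. The red points lie left of 0 in all lists but the ligands, where Clcf1 and Hbegf lie right of it.

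Several cell types could have supplied these transcripts. Macrophage markers were abundant: the 15 markers summed to 15406 to 20727 FPKM in vehicle and 12728 to 15754 FPKM in R, and none was at 0. Of the 15, 4 fell and 0 rose, 13 had a negative log2 change, 9 were lower in R with no overlap between the groups, and the median log2 change was -0.61. Among all 11862 tested genes 4.43% fell, 6018 had a negative log2 change and 15.5% were lower with no overlap. The 4 that fell were the IgG receptor Fcgr1, the scavenger receptor Msr1, Aif1 and the integrin Itgam, by 2.47, 1.43, 1.55 and 0.94 (limma, adjusted p = 0.0021, 0.00084, 0.026 and 0.0058), and the call of Aif1 was lost without any single library other than vehicle replicate 3 (adjusted p = 0.053 to 0.082). Fcgr1 had 66.1, 44.6 and 31.3 FPKM in vehicle replicates 1, 2 and 3, the same order as Fgl2 and Saa3, and 7.96, 7.62 and 6.56 FPKM in R. The 2 markers with a positive log2 change were Cx3cr1 (0.88) and Cd68 (0.11), and Mertk (-0.02) and Tyrobp (-0.09) were nearly level. None of these passed (limma, adjusted p = 0.20, 0.58, 0.97 and 0.74). The 3 highest by the mean of all 6 libraries, Lyz2 (log2 change -0.23), C1qb (-0.70) and C1qa (-0.90), did not pass in limma (adjusted p = 0.54, 0.079 and 0.075), and C1qa passed without vehicle replicate 3 (adjusted p = 0.039). The part of macrophage number or state in the falls of Fgl2, Saa3 and Bcl3 and in the lower values of Pim1 was not tested. Neutrophil markers, which matter for Lcn2 and Lrg1, summed to 2.18 to 3.55 FPKM in vehicle and 1.597 to 2.42 FPKM in R over the 10 of 12 that were in the table. The neutrophil granule genes Mpo and Elane and the gene S100a9 were at 0 in every library, and Mmp8, S100a8 and Camp were the highest, at means of at most 1.35 FPKM in either group. The liver gene Alb was at 0 in every library, as was the acute-phase gene Crp. Markers of T and NK cells summed to 8.34 to 15.0 FPKM in vehicle and 3.06 to 8.03 FPKM in R. Of those 13 markers 7 were lower in R with no overlap between the groups, 1 was higher, and Klrb1c and Ncr1 were at 0. The shares among all tested genes were 15.5% lower and 13.9% higher. Only 3 of the 13 were tested, and no such share was taken for genes below the filter. Among the 7 were the killer-cell genes Gzmb, with 3.182, 1.41 and 0.731 FPKM in vehicle and 0.0961, 0.0774 and 0 FPKM in R, and Prf1, with 0.408 to 0.716 FPKM in vehicle and 0 to 0.107 FPKM in R, and the co-receptor genes Cd8a (0.508 to 1.41 and 0.122 to 0.202 FPKM) and Cd8b1 (0.607 to 0.988 and 0.0373 to 0.124 FPKM), all too low to be tested. Of the 3 tested, Nkg7 fell, from 3.01, 2.16 and 1.48 FPKM in vehicle to 0, 0.243 and 0.182 FPKM in R (log2 change -1.47, limma, adjusted p = 0.0079). Nkg7 met the filter through its vehicle libraries alone. With at least 1 FPKM asked of all 6 libraries, Nkg7 was not tested and this list had 0 calls. Trbc2 (log2 change -1.02, adjusted p = 0.09) and Cd4 (log2 change 0.64, adjusted p = 0.24), the 1 that was higher, did not pass. Trbc2 passed with R replicate 1 left out (adjusted p = 0.017). The part of T and NK cells in the fall of Fgl2 was not tested.

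The matrix genes Col1a1 and Col1a2, listed as markers of the labelled cell type, were high, and some of its surface markers were low. These values do not by themselves identify the cells. The 15 stromal markers summed to 822 to 1169 FPKM in vehicle and 1019 to 1456 FPKM in R. Of 12 tested 1 fell and 0 rose, beside 4.43% and 2.39% of all tested genes. The 1 was Ly6a (log2 change -2.56, limma, adjusted p = 0.015, or 0.053 with vehicle replicate 2 left out). With no overlap between the groups, 4 of the 15 were higher in R (Col1a1, Pdgfrb, Itgb1 and Prrx1, none past the threshold) and 2 were lower (Ly6a and Thy1). Those shares were 13.9% and 15.5% among all tested genes. The markers with the highest level were Col1a1, Itgb1 and Col1a2 (log2 changes 1.19, 0.39 and 0.62, none past the threshold). The surface markers Lepr, Thy1 and Nt5e were too low to be tested. The surface markers Eng, Cd44, Pdgfrb, Pdgfra and Vcam1 were tested and did not pass. Their means were 47.7, 56.7, 33.9, 5.83 and 5.36 FPKM in vehicle and 34.5, 59.6, 54.4, 3.84 and 4.07 FPKM in R. Endothelial markers were low, with sums of 2.29 to 3.25 FPKM in vehicle and 3.81 to 7.74 FPKM in R, and 5 of 8 were higher in R with no overlap between the groups. That share was 13.9% among all tested genes and was not taken for genes below the filter. Only 1 of the 8, Cdh5, was high enough to be tested, and it did not pass (log2 change 0.82, limma, adjusted p = 0.13). B cell markers summed to 2.55 to 4.33 FPKM in vehicle and 2.20 to 4.42 FPKM in R; 1 of the 6, Ebf1, was tested and did not pass (log2 change 0.06, limma, adjusted p = 0.91). The adipocyte and hepatocyte markers, led by Lpl, summed to 96.4 to 156 FPKM in vehicle and 102 to 119 FPKM in R, with 0 calls in limma and 1, Fabp4, at an unadjusted p under 0.05; Fabp4 passed without R replicate 3 (adjusted p = 0.033).

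The tested protein-coding genes most like each target over the 6 libraries were found by Pearson's r of log2(FPKM + 1), as a description in which the group difference itself takes part. The closest to Fgl2 was Herc6 (r = 0.999), an interferon-induced ubiquitin ligase relative, followed by Irak3 (r = 0.998), an inhibitor of Toll-like receptor signalling. The closest to Saa3 were Atp6v0c (r = 0.9999), a subunit of the vesicular proton pump, and C5ar1 (r = 0.996), the receptor of complement fragment C5a on myeloid cells. Pim1 was most like Igsf6 (r = 0.999) and N4bp3 (r = 0.996), and Bcl3 most like Nudt19 (r = 0.995) and Xbp1 (r = 0.992). Among the genes that were higher, Pim3 was most like Klhdc8a and Chac1 (r = 0.997 for both) and Bcl6 most like Rassf8 (r = 0.993) and Sort1 (r = 0.989). Myc was closest to Zfp251 (r = 0.985) and Raet1e (r = 0.967), and Cebpd to Ehmt2 (r = 0.994) and Zbtb8a (r = 0.991). No gene was named for 2 of the targets. With many genes compared over only 6 libraries, even Myc, whose groups overlapped, reached r = 0.985. Such lists therefore do not set the targets apart.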

How the data were processed

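The members and gene lists were chosen with earlier results of these data known. RNA sequencing of 6 libraries, 3 given R and 3 vehicle by their titles, was read from a single table of FPKM that the authors deposited. The submitters' processing notes name edgeR 3.18.1 and, as build, GRCm38 (mm10). Aligner, counter, annotation and strandedness: not given in the sources used here. A broken last line was left out. Symbols (49281 of 49328 identifiers), coordinates and exon lengths came from GENCODE M21 on GRCm38, and promoter sequences from RefSeq on GRCm38.p6.

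Depth was estimated from the steps of low FPKM values: at 0.02 reads of tolerance, 98.3% to 98.4% of values below 20.5 reads were whole. Read numbers and intervals cover counting error only.

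Genes with at least 1 FPKM in at least 3 libraries were tested as log2(FPKM + 1) with limma 3.58.1 in R 4.3.3 (2 groups, trended prior, Benjamini-Hochberg adjustment over 11862 genes, threshold 0.05). On simulated reads for 11853 genes at a dispersion of 0.02 the test recovered 32%, 86%, 92% and 96% of 1.5-, 2-, 4- and 8-fold changes. Of 173 calls 20 were false, a share above the threshold of 0.05. Fgl2 and Saa3 spread more in vehicle than this setting (coefficients of variation of 41.2% and 47.6%), so that the recovered shares do not apply to them. The text names the 10 members, up to 4 called genes per pathway list and the kinases and STATs. It also names the 3 highest markers per cell type and the 2 genes most like each tested member. Il6st, Pim2, Saa1, Saa2, Saa4, Ly6a, Fcgr1, Msr1, Aif1, Itgam, Gzmb, Prf1, Cd8a and Cd8b1 were added after their values were seen. So were Cx3cr1, Cd68, Mertk, Tyrobp, Eng, Cd44, Pdgfrb, Pdgfra, Vcam1, Prrx1 and the markers listed at 0 or too low. Alternatives changed the pseudocount (0.1, 5), the filter, the scaling, the prior, the replicate block and the libraries. Whether libraries of the same number were paired is not given, and the main fit did not pair them.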

Additional observations from a re-analysis of the deposited data

How the results depend on the processing

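Fgl2 kept its call under each of the 14 alternatives, and the log2 changes of all tested members but Myc kept their sign. The members past the threshold numbered 3 with either other pseudocount, the stricter filter, both scalings and robust moderation. Without a filter on low values the number was 1, of 344 genes in all in place of 809 and with 25575 genes tested, and Bcl3 and Saa3 had adjusted p of 0.094 and 0.098. With 1 library left out it was 1 to 2, of 337 to 879 genes in all; in this smaller design Bcl3 was lost in 5 of 6 fits and Saa3 in 4 of 6. For Lcn2 and Lrg1, at 18 and 20 reads in all, depth is the limit, and their log2 values moved with the pseudocount. Of the other genes named as called in the pathway and marker lists, Clcf1, Il4ra, Stat5a, Jak3, Cp, Mt2, Aif1 and Ly6a also lost their calls when low genes were not filtered out (adjusted p = 0.093, 0.12, 0.077, 0.12, 0.062, 0.074, 0.093 and 0.065).

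The sources do not say whether libraries of the same number belong together, and the correlations do not settle it. The deviations of same-numbered libraries from their group means correlated at 0.14, -0.01 and -0.03 for numbers 1, 2 and 3. The value for number 1 was the highest of all pairs, whereas those numbered 2 and 3 correlated better with another number than with their own. With the replicate number as a block, 756 genes and 4 members passed, Pim1 among them (adjusted p = 0.022), with 17 pathway genes and 9 cell markers, and Stat5a and Jak3 did not (adjusted p = 0.075 and 0.081).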
